A study of Homo sapiens with 12 samples.

Results

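Small nucleolar RNAs (snoRNAs) were measured by 192 genes of the 18417 tested on these arrays. They were taken by name alone, as genes with a probe set that names exactly 1 gene and has a symbol beginning with SNORD, SNORA or SCARNA, a rule that uses no measured difference. Of the 192, 115 were box C/D RNAs (SNORD), 61 were box H/ACA RNAs (SNORA) and 16 were Cajal body RNAs (SCARNA), which can carry either box type or both and were kept as a class of their own. Where a gene had several probe sets, as 5 of them did, the one with the highest mean over the arrays was used.

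The cells were MCF10A, a human breast epithelial line that does not form tumours, carrying a stably transfected chimera of full-length human HER2 fused to FKBP and an HA tag. All 4 groups carry the chimera, and the sources used here do not say whether the line is a single clone. The groups were cells given AP1510, a synthetic bivalent ligand that pulls FKBP-tagged receptors together, cells given TGF-alpha, a ligand of EGFR, cells given Heregulin, a ligand of HER3 and HER4, and Untreated cells, with 3 arrays each and 12 in all. DMEM/F12 for routine culture was supplemented with horse serum at 5% and, per ml, with 10 microgram of insulin, 500 ng of hydrocortisone, 100 ng of cholera toxin and 20 ng of EGF. From 24 hours before ligand, serum and EGF were left out in all groups and the other supplements were kept. RNA of ligand-treated cells was harvested 48 hours after ligand. The sources used here give neither the ligand doses nor when the Untreated cells were harvested, so effects of time in culture and of ligand cannot be told apart in contrasts against Untreated. The labels name triplicate dishes, so p-values measure the spread between dishes of this line.

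SnoRNAs are short stable RNAs that guide chemical modification of other RNAs. Box C/D RNAs direct the methylation of ribose by the enzyme fibrillarin, box H/ACA RNAs direct the conversion of uridine to pseudouridine by dyskerin, and most targets of both lie in ribosomal RNA. Cajal body RNAs guide the same reactions on the small nuclear RNAs of the spliceosome. Most human snoRNAs are cut out of introns after the transcript of a host gene is spliced, and many hosts encode ribosomal proteins or translation factors. Growth factor receptors are known to drive ribosome production in epithelial cells.

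The deposited values are log2 intensities made with RMA, which corrects the background, equalises the arrays and summarises probes. They ran from 1.752 to 14.232, with array medians of 5.326 to 5.444. All differences below are on that log2 scale, so a difference of 1 is a doubling. A gene was called when limma's two-sided test, fitted over all 12 arrays and adjusted by Benjamini-Hochberg over the 18417 genes, gave an adjusted p under 0.05. The 5 measured markers of mammary basal epithelium were KRT5, KRT14, CDH1, EPCAM and ITGA6, with mean levels of 12.11, 7.80, 10.95, 9.22 and 9.80. By limma 4 of the 5 were higher with TGF-alpha against Untreated and CDH1 did not pass, 2 were higher with AP1510, and with Heregulin 2 were higher and EPCAM was lower (-1.09). Of 11 markers of other cell types, the leukocyte markers PTPRC and LYZ had the lowest mean levels (2.98 and 2.95) and the endothelial marker PECAM1 the highest (8.52). Among these 11, the endothelial CDH5 was lower with TGF-alpha (-0.94, adjusted p = 6.3e-05) and Heregulin (-0.58, adjusted p = 0.014), PECAM1 was lower with Heregulin (-0.33, adjusted p = 0.022), and the other 9 did not pass. Leaving out 1 array lost KRT5 with AP1510 in 3 of 12 refits, PECAM1 with Heregulin in 4 and CDH5 with Heregulin in 2. The part of these shifts in the snoRNA results was not tested. In a probe set named for a snoRNA, the mature RNA and an unspliced precursor that contains it cannot be told apart. Nor can a large change in few cells be told apart from a small change in all of them.

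TGF-alpha gave the most snoRNA calls of the 3 ligands against Untreated. In TGF-alpha cells 22 of the 192 snoRNAs were lower and 11 were higher than in Untreated cells, so 33 were called, or 17.2%, against 26.0% of all genes tested. The falls were 12 box C/D RNAs, 8 box H/ACA RNAs and 2 Cajal body RNAs. The rises were 8 box C/D RNAs, 3 Cajal body RNAs and 0 box H/ACA RNAs, of which 1 was higher at an unadjusted p under 0.05 by limma. At that unadjusted level 3042 of all 18417 genes were higher. Among all genes, 12.5% were called higher and 13.4% were called lower. The median change with TGF-alpha was -0.02 for box C/D RNAs, -0.09 for box H/ACA RNAs, 0.08 for Cajal body RNAs and -0.01 for all genes. Leaving out 1 array moved the box H/ACA median to between -0.14 (without TGF-alpha replicate 1) and -0.02 (without TGF-alpha replicate 3). It moved the Cajal body median to between 0.02 and 0.15 without the same 2 arrays, and the box C/D median to between -0.03 (without TGF-alpha replicate 3) and 0.01 (without TGF-alpha replicate 2). The median moderated SD of a single RNA between arrays was 0.144 for box C/D, 0.154 for box H/ACA and 0.168 for Cajal body RNAs. For all genes it was 0.128. That SD does not measure the spread of a class median. Class medians on the Untreated arrays, with each RNA taken minus its Untreated mean, were 0.05, -0.03 and -0.04 for box C/D RNAs. They were 0.09, -0.07 and -0.04 for box H/ACA RNAs, and 0.08, -0.1 and 0.0 for Cajal body RNAs. In each class the TGF-alpha arrays overlapped these. Whether the classes differ was not tested.

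A smaller share of the rises than of the falls stayed called when arrays were left out. Of the 33 calls, 30 had TGF-alpha and Untreated arrays that did not overlap. Of the 22 falls, 14 were called again in each of 12 refits that left out 1 array in turn, and of the 11 rises 1 was. With only these 2 groups in the fit, 18 were higher and 26 lower, of which box C/D RNAs gave 15 and 15. Without Untreated replicate 1 they gave 9 and 9. The 11 rises became 2 without TGF-alpha replicate 1, 3 without Untreated replicate 2 and 5 without Untreated replicate 3. The 8 falls among box H/ACA RNAs became 5 without Untreated replicate 1, and 1 box H/ACA RNA was called higher without TGF-alpha replicate 3 or without Untreated replicate 3. The 8 rises among box C/D RNAs became 2 without TGF-alpha replicate 1 or Untreated replicate 2, 3 without Untreated replicate 3 and 4 without TGF-alpha replicate 3. The 3 Cajal body rises became 0 without TGF-alpha replicate 1 and 1 without Untreated replicate 2 or 3. The same counts over all genes called are not given here, so none of these shows a trait particular to snoRNAs.

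**Figure D1:**
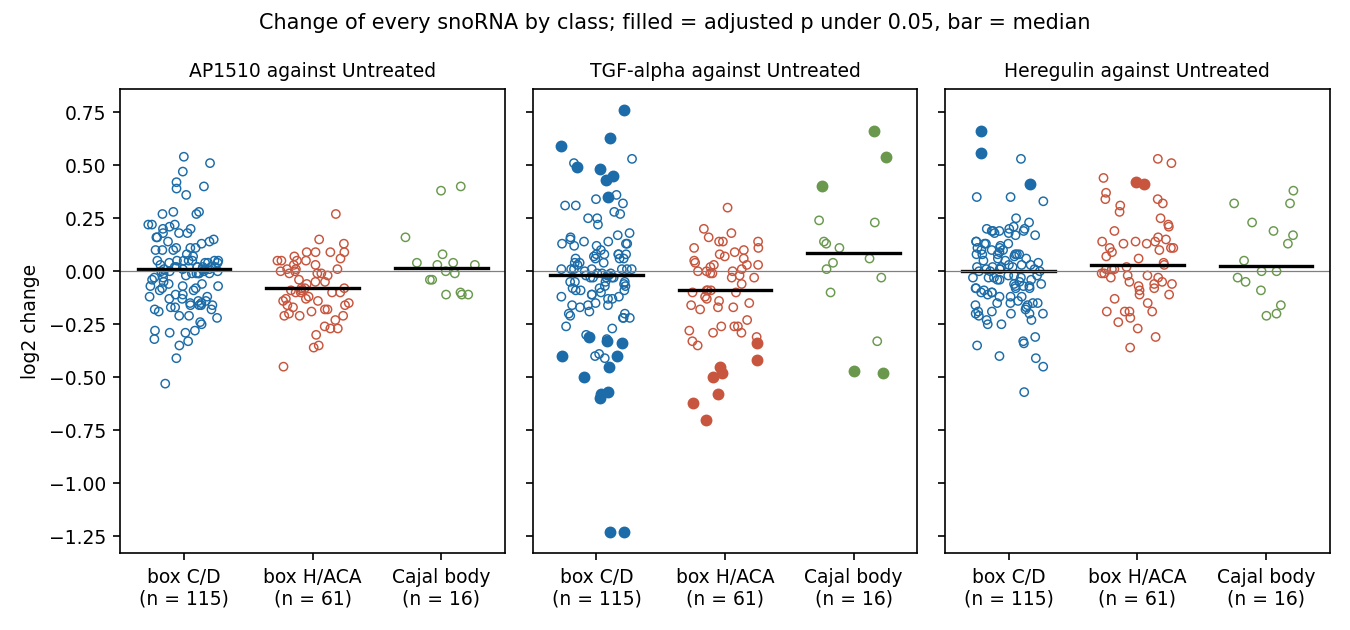
Each point is 1 snoRNA, placed by its log2 change (vertical axis) in cells given AP1510, TGF-alpha or Heregulin against Untreated cells, for the 3 classes (horizontal axis). Filled points had an adjusted p under 0.05 and black bars are class medians; the filled points are 0 with AP1510, 33 with TGF-alpha and 5 with Heregulin.

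On single arrays the class medians moved little and the arrays of a group disagreed. The median box H/ACA RNA, taken as its value minus its Untreated mean, lay at 0.05, -0.13 and -0.13 on the TGF-alpha arrays, against 0.09, -0.07 and -0.04 on the Untreated arrays. For AP1510 the same medians were -0.15, -0.11 and 0.01, and for Heregulin they were 0.12, 0.03 and 0.02. Arrays of each ligand group overlapped those of the Untreated group. Box C/D medians stayed between -0.08 and 0.08 on all 12 arrays, and both of these extremes were Heregulin arrays.

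**Figure D2:**
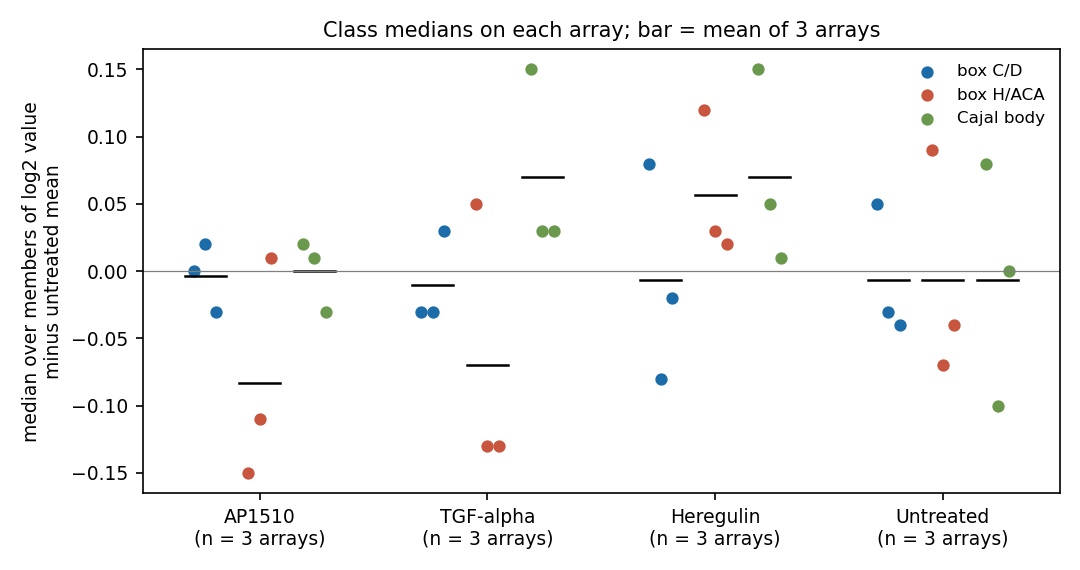
Each point is 1 array, and its height is the median over the snoRNAs of a class of the log2 value minus the Untreated mean of that snoRNA. Black bars are means of the 3 arrays of a group; the box H/ACA points of TGF-alpha, Heregulin and AP1510 cells each overlap those of Untreated cells.

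Many snoRNAs had low signal. The mean level of 119 of the 192 snoRNAs lay below the median of all genes tested, 5.97, which was the threshold of an alternative filter on dim genes. They included 80 box C/D RNAs, 33 box H/ACA RNAs and 6 Cajal body RNAs. Part of this is the imprinted copy families SNORD113 to SNORD116, which are known mainly from brain: 46 measured copies, 40 within SNHG14 and 6 within MEG8, averaged 2.24 to 3.90 and none was called in any of the 6 contrasts. With TGF-alpha against Untreated, 3 of these 46 had an unadjusted p under 0.05 by limma, as did 6328 of all 18417 genes. Among the 35 box C/D RNAs above that median, 11 were lower and 2 higher with TGF-alpha, with a median change of -0.16. Among the 28 box H/ACA RNAs above it, 5 were lower and 0 higher, with a median change of -0.13. The lower calls were 31.4% of these box C/D RNAs and 17.9% of these box H/ACA RNAs. Over all genes tested, bright and dim, 13.4% were lower and 12.5% higher with TGF-alpha. The share among all genes above that median is not given here, so these counts do not show a fall particular to snoRNAs.

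SNORD12C, which guides methylation of the large-subunit ribosomal RNA, had the clearest fall. It is encoded on chromosome 20 within ZFAS1, a non-coding host gene. It read 4.93, 4.58 and 4.33 on the TGF-alpha arrays, against 5.92, 5.54 and 6.07 on the Untreated arrays. AP1510 cells had 5.39, 5.31 and 5.87, and Heregulin cells had 5.74, 5.20 and 5.39. Every TGF-alpha array was below the other 9 arrays. The mean level of SNORD12C lay below the median of all genes, 5.97, so the filter on dim genes left it out. The change against Untreated was -1.23 ± 0.18 (SE), or 2.34-fold lower, with an adjusted p of 8e-05 by limma, and SNORD12C was also lower in TGF-alpha than in AP1510 cells (-0.91 ± 0.18, adjusted p = 0.0016). ZFAS1 itself averaged 0.18 ± 0.08 higher in TGF-alpha cells, which did not pass (adjusted p = 0.11). The start regions of ZFAS1 and of 3 other host genes that recur below are shown because an intronic snoRNA is transcribed from the start of its host. The 125 bases run 5′ to 3′ on the gene's strand, from 100 before the annotated transcription start, and come from RefSeq on build GRCh38.p14. Capitals mark the unbroken run of C and T that begins with a C at the start itself, the signature of the TOP mRNAs whose translation follows growth signals, or the E-box CACGTG, the hexamer bound by MYC.
ZFAS1 (chr20:49278542-49278666, plus strand): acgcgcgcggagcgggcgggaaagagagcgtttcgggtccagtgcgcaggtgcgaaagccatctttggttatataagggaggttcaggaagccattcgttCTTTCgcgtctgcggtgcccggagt
RPL13A (chr19:49487508-49487632, plus strand): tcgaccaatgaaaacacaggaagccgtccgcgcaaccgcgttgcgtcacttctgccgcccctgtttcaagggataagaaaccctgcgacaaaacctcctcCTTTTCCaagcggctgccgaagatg
TCP1 (chr6:159789578-159789702, minus strand): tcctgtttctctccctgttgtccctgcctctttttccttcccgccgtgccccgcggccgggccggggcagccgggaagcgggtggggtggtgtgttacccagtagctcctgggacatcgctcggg
WDR43 (chr2:28894567-28894691, plus strand): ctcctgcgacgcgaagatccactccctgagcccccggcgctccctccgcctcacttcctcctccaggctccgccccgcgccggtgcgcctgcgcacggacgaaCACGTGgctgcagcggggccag

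The C and T run was 5 bases in ZFAS1 and 7 bases in RPL13A, while TCP1 and WDR43 began otherwise. WDR43 held CACGTG from base 4 of its transcript. RPL13A also holds it within the longer window counted next, outside the printed bases, and this hexamer reads the same on both strands. Of the 114 genes that span a snoRNA, 93 were in the RefSeq table, and 29 of these (31.2%) began with a C followed by at least 4 C or T bases at the annotated start, read on the gene's own strand. Over all 35116 windows in that table the share was 4.07%. CACGTG, in the window of 250 bases before to 50 after the start, was in 11 of the 93 (11.8%), against 7.26% of all windows. A spanning gene was counted if any of its windows matched, whereas the shares over all windows count each window singly, so the measures differ. Each snoRNA was counted under the shortest gene around it, found by position without regard to strand. Such a gene, for example CHD4-AS1 or PABPC4-AS1, may not be the one the snoRNA is transcribed from. With TGF-alpha, 39 snoRNAs in genes with the C and T start had 7 falls, 2 rises and a median change of -0.09. The 119 snoRNAs in genes without it had 10 falls, 8 rises and a median change of -0.01. These 119 include the 40 dim copies within SNHG14, of which none was called, so the 2 sets are not alike in signal. Of all genes tested, 12.5% were higher and 13.4% lower with TGF-alpha. A match describes these letters only, and whether snoRNAs in genes with such a start respond differently was not tested.

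Several other box C/D RNAs fell with TGF-alpha. SNORD35A, a guide for the large-subunit ribosomal RNA within RPL13A, read 9.86, 9.88 and 9.69 in TGF-alpha cells, against 10.49, 10.37 and 10.27 in Untreated cells. Its change was -0.57 ± 0.09 (adjusted p = 1e-04 by limma), and the groups did not overlap. SNORD74, a guide for the same ribosomal RNA within GAS5, read 7.47, 7.43 and 7.87 in TGF-alpha cells, against 8.22, 8.27 and 8.09 in Untreated cells (-0.60 ± 0.12, adjusted p = 0.00081). SNORD8, which lies in CHD8 and guides methylation of the U6 spliceosomal RNA, read 7.36, 7.02 and 7.0 in TGF-alpha cells, against 7.83, 7.71 and 7.59 in Untreated cells (-0.58 ± 0.11, adjusted p = 0.00098). In each case all TGF-alpha arrays were below all Untreated arrays. SNORD95 in RACK1, SNORD104 in SNHG25 and SNORD46 were lower by smaller amounts, with changes of -0.50, -0.45 and -0.40. SNORD13P2, a pseudogene copy of SNORD13 within FOXK1, read 5.47, 4.77 and 5.59 in TGF-alpha cells, against 6.68, 6.14 and 6.69 in Untreated cells. Its change was as large as that of SNORD12C but its error was wider (-1.23 ± 0.31, adjusted p = 0.0068). These 7 RNAs, with SNORD12C, were called in all 12 refits that left out an array.

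Box H/ACA RNAs that passed with TGF-alpha were all lower, and each had TGF-alpha arrays below every Untreated array. SNORA49, predicted to guide pseudouridine formation in the large-subunit ribosomal RNA, lies in EP400, the gene of a chromatin remodeller. It read 6.96, 6.71 and 6.61 in TGF-alpha cells, against 7.69, 7.37 and 7.32 in Untreated cells. The change was -0.70 ± 0.12, or 1.63-fold lower (adjusted p = 0.00022 by limma), while EP400 changed by 0.19 and did not pass. SNORA20, within the chaperonin gene TCP1, read 6.63, 6.56 and 6.33 in TGF-alpha cells, against 7.04, 6.82 and 7.39 in Untreated cells (-0.58 ± 0.14, adjusted p = 0.0039). Its host TCP1 went the other way, with 11.94, 12.02 and 12.03 in TGF-alpha cells, against 11.60, 11.66 and 11.67 in Untreated cells (0.35 ± 0.09, adjusted p = 0.005). SNORA27 in RPL21, SNORA37 in MBD2 and SNORA54 in NAP1L4 changed by -0.62, -0.50 and -0.45, with adjusted p-values of 0.004, 0.0054 and 0.0051. These 5 were called in all 12 refits. SNORA28 in EIF5 changed by -0.48 ± 0.16 (adjusted p = 0.039), a call that ended without TGF-alpha replicate 1 or 2 or Untreated replicate 1 or 3, where its adjusted p reached 0.19. SNORA68 and SNORA70E changed by -0.42 and -0.34, and the SNORA68 call ended without TGF-alpha replicate 2 or Untreated replicate 1, where its adjusted p reached 0.079. The SNORA70E call (adjusted p = 0.047) ended in 8 of the 12 refits, where its adjusted p reached 0.20 without TGF-alpha replicate 3.

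**Figure D3:**
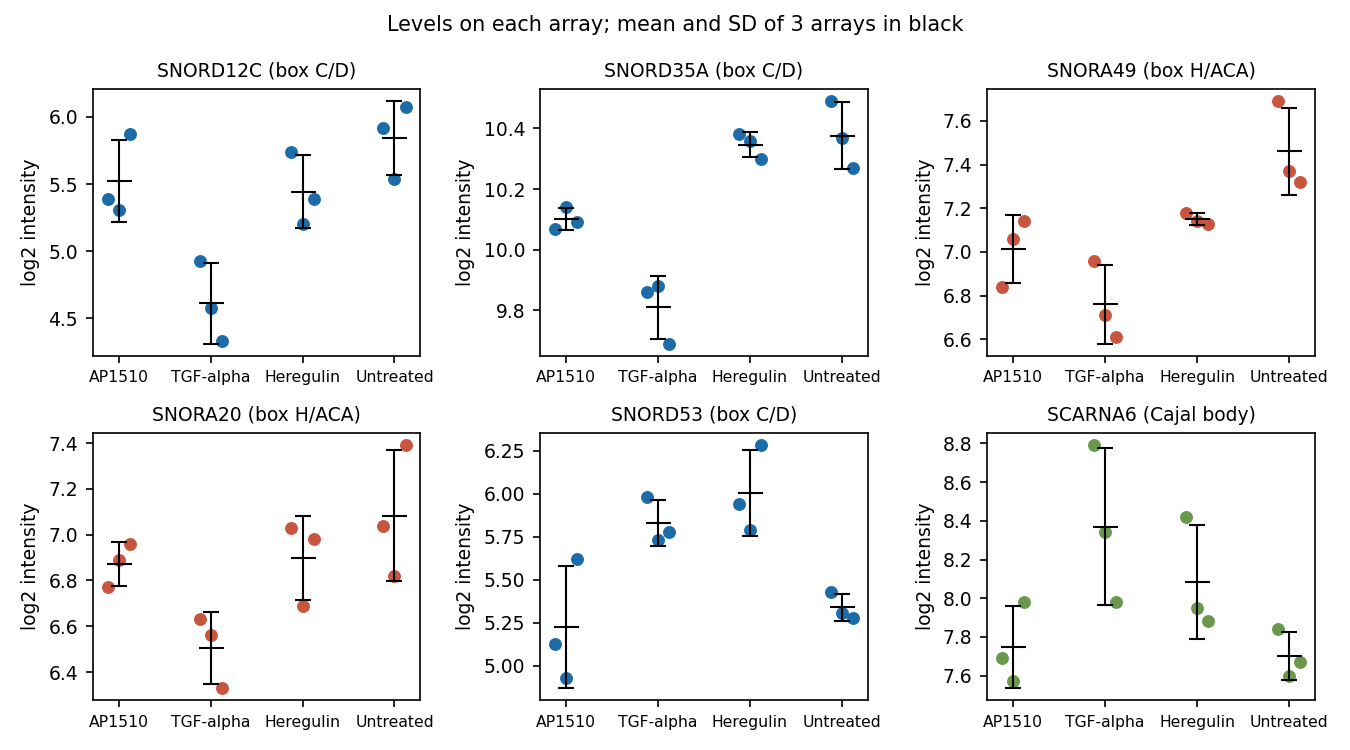
Log2 intensity (vertical axis) of 6 snoRNAs on each of the 12 arrays, by group (horizontal axis), with the mean and SD of 3 arrays in black. SNORD12C, SNORD35A, SNORA49 and SNORA20 have their lowest mean in TGF-alpha cells, SNORD53 is higher in TGF-alpha and Heregulin cells than in Untreated cells, and the 3 TGF-alpha arrays of SCARNA6 spread from 7.98 to 8.79.

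Among Cajal body RNAs, 3 were higher and 2 lower with TGF-alpha. SCARNA6, a guide for the U5 spliceosomal RNA, read 8.79, 8.34 and 7.98 in TGF-alpha cells, against 7.84, 7.60 and 7.67 in Untreated cells (0.66 ± 0.18, adjusted p = 0.01 by limma). The groups did not overlap, but the call ended without TGF-alpha replicate 1, the highest array, where the adjusted p was 0.065. SCARNA5, encoded in the same gene ATG16L1, changed by 0.40 ± 0.13 (adjusted p = 0.028), and that call ended without TGF-alpha replicate 1 or Untreated replicate 2 or 3, with an adjusted p of up to 0.16. ATG16L1, an autophagy gene, was itself higher in TGF-alpha cells by 0.86 ± 0.09 (adjusted p = 2.6e-06). SCARNA8 changed by 0.54 ± 0.16 (adjusted p = 0.017) with overlapping arrays, and that call ended without the same 3 arrays as that of SCARNA5. SCARNA7, a guide for the U1 spliceosomal RNA within the importin gene KPNA4, read 9.43, 9.24 and 9.28 in TGF-alpha cells, against 9.82, 9.78 and 9.76 in Untreated cells (-0.47 ± 0.12, adjusted p = 0.0067), and was called in all 12 refits. SCARNA1 changed by -0.48 ± 0.15 (adjusted p = 0.023), a call that ended without TGF-alpha replicate 1 or 2 or Untreated replicate 1 or 3.

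Of the 8 box C/D RNAs that rose with TGF-alpha, only SNORD30 was called in all 12 refits. SNORD30, a guide for the small-subunit ribosomal RNA within SNHG1, read 6.23, 6.16 and 6.53 in TGF-alpha cells, against 5.83, 5.72 and 5.48 in Untreated cells. Its change was 0.63 ± 0.15 (adjusted p = 0.0048 by limma). SNORD49A within SNHG29 read 5.22, 5.52 and 5.63 in TGF-alpha cells, against 5.21, 4.48 and 4.41 in Untreated cells (0.76 ± 0.21, adjusted p = 0.014). Its lowest TGF-alpha array lay just above its highest Untreated array, and the call ended without TGF-alpha replicate 3 or Untreated replicate 2 or 3, with an adjusted p of up to 0.078. SNORD53 within WDR43 changed by 0.49 ± 0.15 (adjusted p = 0.024), a call that ended without TGF-alpha replicate 1 or Untreated replicate 2 or 3. SNORD36B within RPL7A changed by 0.59 ± 0.18 (adjusted p = 0.023), and that call ended without TGF-alpha replicate 1 or 3 or Untreated replicate 2 or 3. SNORD45C within RABGGTB changed by 0.45 ± 0.12 (adjusted p = 0.0087), and that call ended without TGF-alpha replicate 1.

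RNAs with special roles in cleaving or acetylating ribosomal RNA could be read only in part. SNORD13, which guides acetylation of the small-subunit ribosomal RNA, read 12.30, 12.15 and 12.10 in TGF-alpha cells, against 12.57, 12.68 and 12.29 in Untreated cells. The groups overlapped, and the change of -0.33 ± 0.10 (adjusted p = 0.027 by limma) was no longer called without TGF-alpha replicate 2 or 3 or Untreated replicate 1 or 2. The copy SNORD13P3 changed by -0.34 (adjusted p = 0.017), a call that ended without TGF-alpha replicate 3 or Untreated replicate 2, and near-identical copies may share signal. Of the U14 genes, needed for cleavage of the precursor, SNORD14C changed by -0.05 and did not pass. SNORD14E changed by 0.48 ± 0.16 (adjusted p = 0.036) with overlapping arrays, a call that ended without TGF-alpha replicate 1 or 3 or Untreated replicate 2 or 3. SNORD3 (U3), SNORD22 (U22) and SNORA73A (U17) were read only by probe sets that name several genes.

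Most snoRNAs lie inside a gene that was measured too, which allowed snoRNA and host to be set side by side. In all, 99 snoRNAs had a measured gene around them, 77 genes in total, found by position in RefSeq without regard to strand. With TGF-alpha, 29 of the 77 genes were higher and 2 lower, against 12.5% higher and 13.4% lower of all genes. The median change was 0.15 over the 77 genes, each counted once, and 0.00 over the 99 snoRNAs. The snoRNA changed less, in signed terms, than the gene around it in 78 of 99 pairs. Among box H/ACA pairs this was so in 42 of 50, among box C/D pairs in 25 of 35 and among Cajal body pairs in 11 of 14. Across the 99 pairs the 2 changes had a Pearson r of 0.30 and a Spearman rho of 0.24, given as a description, since snoRNAs in the same gene share a host and all pairs share the arrays.

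Pairs fell into a few patterns. Both snoRNA and gene were higher in 6 pairs, and the snoRNA was lower while the gene was higher in 2, SNORA20 with TCP1 and SNORD94 with PTCD3. The snoRNA was lower with no call for the gene in 10 pairs, and the gene was higher with no call for the snoRNA in 29. Some hosts with large changes held a snoRNA that changed little. ODC1, which makes polyamines and is a known MYC target, had 10.06, 10.10 and 10.18 in TGF-alpha cells, against 8.79, 8.84 and 8.90 in Untreated cells (1.27, adjusted p = 2.8e-08 by limma), while SNORA80B within it changed by 0.03. POLA1, a subunit of DNA polymerase alpha, changed by 1.39 (adjusted p = 9.3e-07), while SCARNA23 changed by 0.06. HAUS6, a spindle gene, changed by 1.65 and SCARNA8 within it by 0.54. WDR43, a ribosome biogenesis gene, changed by 0.86 (adjusted p = 4e-05) with 0.49 for SNORD53. The difference between a snoRNA and its host was not tested.

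**Figure D4:**
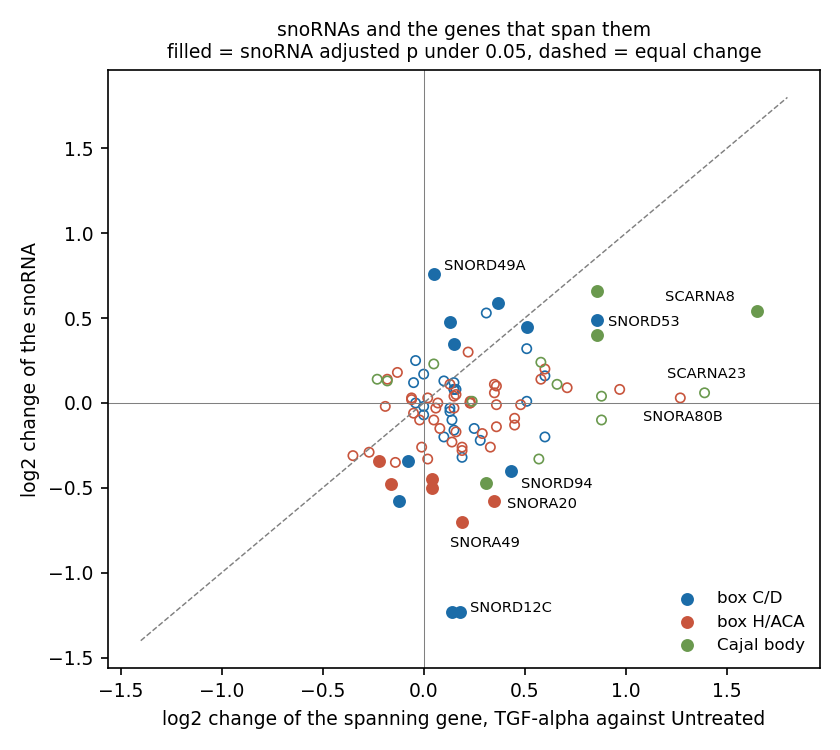
Each of the 99 points is a snoRNA, placed by the log2 change of the gene that spans it (horizontal axis) and its own log2 change (vertical axis), TGF-alpha against Untreated. Filled points are snoRNAs with an adjusted p under 0.05 and the dashed line marks equal change; 78 points lie below it.

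Readings of snoRNAs that lie within the same gene, found by position, did not move as a block. Mature RNA and unspliced precursor cannot be told apart in these readings. GAS5 held 7 measured box C/D RNAs, and with TGF-alpha SNORD74 fell while SNORD79 read 5.13, 5.16 and 5.08, against 4.67, 4.60 and 4.80 in Untreated cells (0.43 ± 0.13, adjusted p = 0.019 by limma). The SNORD79 call ended without TGF-alpha replicate 1 or 2 or Untreated replicate 1 or 2, and the other 5 did not pass. All 4 RNAs of RPL13A were lower in TGF-alpha cells on average, from -0.57 for SNORD35A to -0.16, and SNORD35A and SNORD32A passed. The SNORD32A call (-0.31, adjusted p = 0.039) ended without Heregulin replicate 3, TGF-alpha replicate 2 or 3, or Untreated replicate 1 or 2. The 3 SNORA71 copies within SNHG17 ranged from 0.00 to 0.01, and no RNA of NCL, RPL3 or TBRG4 passed.

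**Figure D5:**
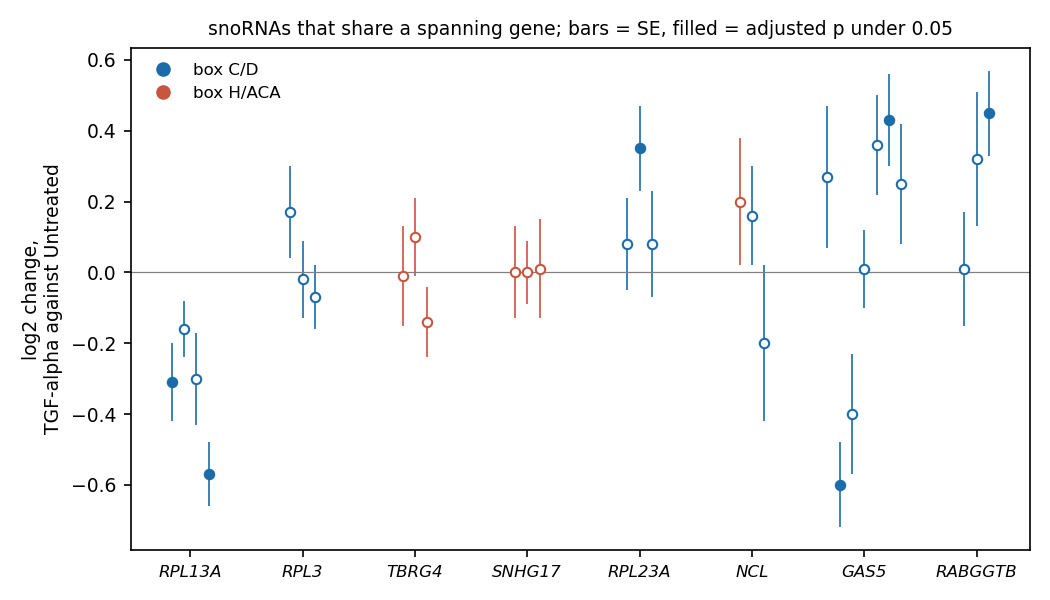
Log2 change in TGF-alpha against Untreated cells (vertical axis, bars are SE) of snoRNAs grouped by spanning gene (horizontal axis), for 8 of the genes that span at least 3 of them. Filled points had an adjusted p under 0.05; GAS5 holds a rise of 0.43 and a fall of -0.60, and all 4 RNAs of RPL13A lie below 0.

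Most transcripts for proteins that bind and assemble snoRNAs rose with TGF-alpha. Of the box C/D core, FBL (fibrillarin) and NOP58 were measured, and both were higher. FBL had 10.06, 10.11 and 10.15 in TGF-alpha cells, against 9.18, 9.28 and 9.01 in Untreated cells (0.95 ± 0.10, adjusted p = 1.5e-06 by limma), and NOP58 changed by 0.55. Of the box H/ACA core, DKC1 (dyskerin) had 8.43, 8.52 and 8.52 in TGF-alpha cells, against 7.49, 7.35 and 7.68 in Untreated cells (0.99 ± 0.12, adjusted p = 1e-05). NOP10 changed by 0.55 and GAR1 by 0.30, and NHP2, at 0.15, did not pass. The GAR1 call (adjusted p = 0.028) ended in 4 of 12 refits, with an adjusted p of 0.12 without Untreated replicate 2. Of 14 assembly and trafficking factors, 12 were higher and 0 lower, led by TCOF1 (1.33), NOLC1 (1.23) and RUVBL1 (1.02), while RPAP3 and ZNHIT3 did not pass. The 14 had a median change of 0.60, against -0.01 for all genes, of which 12.5% were higher and 13.4% lower. With AP1510, 0 of these 20 genes passed and 3 had an unadjusted p under 0.05 by limma, as did 2038 of all 18417 genes. With Heregulin, NOP58 (0.38), DKC1 (0.56) and NOLC1 (0.65) were higher, and the NOP58 call ended in 2 of 12 refits, with an adjusted p of 0.12 without Heregulin replicate 3. Of 35 listed non-coding host genes 4 were measured, and 0 passed against Untreated with any ligand, with 2 at an unadjusted p under 0.05 for TGF-alpha, 1 for Heregulin and 0 for AP1510. Over all 18417 genes the unadjusted counts were 6328, 3734 and 2038 in that order. Among 28 other small non-coding RNAs, 4 were higher and 6 lower with TGF-alpha, against 12.5% higher and 13.4% lower of all genes.

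Few snoRNAs were called with Heregulin. In Heregulin cells 5 of 192 snoRNAs were higher than in Untreated cells (2.6%) and 0 were lower (9 at an unadjusted p under 0.05 by limma), against 8.5% of all genes called, 3.45% higher and 5.06% lower. At that unadjusted level 2131 of all 18417 genes were lower. The 5 snoRNAs called were the box C/D RNAs SNORD53, SNORD30 and SNORD4A and the box H/ACA RNAs SNORA55 and SNORA74A. In all 5 the groups did not overlap, and the share of all called genes without overlap is not given here. SNORD53 read 5.94, 5.79 and 6.28 in Heregulin cells, against 5.43, 5.31 and 5.28 in Untreated cells (0.66 ± 0.15, adjusted p = 0.011 by limma). Like that of SNORD12C, its mean level lay below the median of all genes, 5.97. Its host WDR43 was higher as well, by 0.55 ± 0.12 (adjusted p = 0.008). SNORA55, within PABPC4, read 6.31, 6.22 and 6.23 in Heregulin cells, against 5.90, 5.81 and 5.79 in Untreated cells (0.42 ± 0.11, adjusted p = 0.02). PABPC4 changed by 0.16 and did not pass. SNORD30, SNORD4A and SNORA74A changed by 0.56, 0.41 and 0.41. Each of the 5 calls ended without at least 1 array. SNORD53 reached an adjusted p of 0.059 without Heregulin replicate 3 and also ended without Untreated replicate 3, and SNORA55 ended without Heregulin replicate 1 or Untreated replicate 2 or 3, reaching 0.08. SNORD30 ended without Heregulin replicate 1 or 3 or Untreated replicate 2 or 3, and SNORA74A and SNORD4A ended in 6 and 8 of the 12 refits. The count of 5 became 9 without Heregulin replicate 2 and 3 without TGF-alpha replicate 2. It became 2 without Heregulin replicate 1, Heregulin replicate 3 or Untreated replicate 2, and 1 without Untreated replicate 3. Lower calls appeared without Heregulin replicate 1 (1 higher, 1 lower), with dim genes left out (2 higher, 1 lower) and with array weights (14 higher, 6 lower). Among Cajal body RNAs 0 passed and 1 had an unadjusted p under 0.05 by limma, and SCARNA6, SCARNA8 and SCARNA16 had the smallest p-values. Of all 18417 genes, 3734 had an unadjusted p under that level.

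AP1510 gave no call against Untreated among the 192 snoRNAs, against 1.47% of all genes, 0.771% higher and 0.7% lower. By limma 18 snoRNAs had an unadjusted p under 0.05, of which 13 were box C/D, 4 box H/ACA and 1 Cajal body RNAs. Of all 18417 genes, 2038 had an unadjusted p that low. SNORA49 read 6.84, 7.06 and 7.14 in AP1510 cells, against 7.69, 7.37 and 7.32 in Untreated cells, without overlap (-0.45 ± 0.12, adjusted p = 0.072). SNORD94, a guide for the U6 spliceosomal RNA, read 6.33, 6.08 and 6.37 in AP1510 cells, against 6.82, 6.56 and 6.64 in Untreated cells (-0.41 ± 0.11, adjusted p = 0.072). SNORD42A within RPL23A read 5.36, 5.22 and 5.04 in AP1510 cells, against 5.01, 4.56 and 4.51 in Untreated cells (0.51 ± 0.13, adjusted p = 0.074). Both SNORA49 and SNORD94 were also lower in TGF-alpha cells, a contrast that shares the Untreated arrays. The SNORD94 call with TGF-alpha (-0.40, adjusted p = 0.0092) ended without TGF-alpha replicate 2 or Untreated replicate 1. The median change with AP1510 was 0.01 for box C/D RNAs, -0.08 for box H/ACA RNAs and 0.01 for Cajal body RNAs, against -0.01 for all genes. Without AP1510 replicate 3 the count became 2, and without Untreated replicate 1 it became 1.

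Between ligands, all box H/ACA RNAs called in Heregulin against TGF-alpha cells were higher. In Heregulin cells 16 snoRNAs were higher and 3 lower than in TGF-alpha cells, 9.9% of the 192, against 21.6% of all genes, of which 9.88% were higher and 11.8% lower. Box H/ACA RNAs gave 10 of the 16 and none of the 3, with a median change of 0.15, against 0.02 for box C/D RNAs and 0.03 for all genes. SNORA68, a guide for the large-subunit ribosomal RNA, read 9.38, 9.31 and 9.24 in Heregulin cells, against 8.88, 8.64 and 8.68 in TGF-alpha cells (0.58 ± 0.12, adjusted p = 0.0015 by limma). SNORD12C was higher by 0.83 ± 0.18 (adjusted p = 0.0031) and SNORD35A by 0.54 ± 0.09 (adjusted p = 0.00022). SNORD58A, within RPL17, went the other way, with 7.04, 5.87 and 6.45 in Heregulin cells, against 7.39, 7.28 and 7.34 in TGF-alpha cells (-0.88 ± 0.23, adjusted p = 0.0091). These 4 were called in all 12 refits, and the other 15 were not. The call of SNORD13P2 (1.0 ± 0.31, adjusted p = 0.029) ended without Heregulin replicate 1 or 2 or TGF-alpha replicate 2. The calls of SNORA7B (0.67) and SNORD38B (-0.72) each ended in 5 of the 12 refits. The 10 box H/ACA rises became 1 without TGF-alpha replicate 2, 4 without TGF-alpha replicate 3 or Heregulin replicate 1, and 6 without Heregulin replicate 3. Without Heregulin replicate 1 the balance over all snoRNAs turned to 6 higher and 8 lower, with 2 higher and 7 lower among box C/D RNAs. All 19 calls became 5 without TGF-alpha replicate 2, 9 without TGF-alpha replicate 3 and 11 without Heregulin replicate 3.

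TGF-alpha against AP1510 gave 8 snoRNAs higher and 13 lower in TGF-alpha cells, 10.9% of the 192, against 21.6% of all genes, 11.2% higher and 10.4% lower. SNORD12C, SNORD74 and SNORD4A were called in all 12 refits, with changes of -0.91, -0.46 and 0.47. SCARNA9, at 7.72, 7.38 and 7.65 in TGF-alpha cells, against 8.15, 8.18 and 8.56 in AP1510 cells (-0.71 ± 0.22, adjusted p = 0.027 by limma), lost its call without AP1510 replicate 3 or TGF-alpha replicate 2 or 3. SNORD75 in GAS5 (-0.56) lost its call without the same 3 arrays. SCARNA6 (0.62) was no longer called without AP1510 replicate 1 or 2 or TGF-alpha replicate 1. SNORD53 (0.60) was no longer called without AP1510 replicate 2, and SNORD59B (0.58) without TGF-alpha replicate 3. The 21 calls became 10 without AP1510 replicate 2 or 3, 11 without TGF-alpha replicate 2 and 13 without TGF-alpha replicate 3.

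Heregulin against AP1510 gave 5 snoRNAs higher and 2 lower in Heregulin cells, 3.65% of the 192, against 7.23% of all genes, 3.27% higher and 3.95% lower. SNORD53 read 5.94, 5.79 and 6.28 in Heregulin cells, against 5.13, 4.93 and 5.62 in AP1510 cells (0.77 ± 0.15, adjusted p = 0.0048 by limma). SNORD53 and SNORA55 (0.50 ± 0.11, adjusted p = 0.0081) were called in all 12 refits. The calls of SNORA14B (0.53) and SNORD4A (0.52) ended without AP1510 replicate 2. SNORD28 (-0.59) and SCARNA9L (-0.56) were lower, and each of these calls ended in 4 refits, with an adjusted p of 0.12 without Heregulin replicate 2. Leaving out AP1510 replicate 2 gave 2 calls in place of 7, leaving out Heregulin replicate 3 gave 4, and leaving out Heregulin replicate 1 gave 12, of which 5 were higher and 7 lower. Over the 4 groups at once, the moderated F test called 31 snoRNAs, 17 of them box C/D, 10 box H/ACA and 4 Cajal body RNAs, against 28.5% of all genes.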

How the data were processed

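The deposited table holds log2 intensities of 33297 probe sets on 12 arrays, which the authors made with RMA, per the submitters' processing notes (no version is given in the sources used here). Per the labels, total RNA was labelled with a One-Cycle target labelling kit. That kit primes on poly(A) tails, which mature snoRNAs lack, and which RNA species carried the label was not tested. Probe sets were named through the array's annotation: 19460 name 1 gene, 1754 several and 12083 none, and 18417 genes were tested. All 192 snoRNAs matched RefSeq. The genes that span them were found there by position without strand, since that table gives none, although the same strand had been planned. Limma 3.58.1 in R 4.3.3 fitted 1 mean per group with 8 residual degrees of freedom. P-values were adjusted by Benjamini-Hochberg per contrast, with a threshold of 0.05. The fit was tested on simulated data. Members and lists were chosen with earlier results of these data known. The text names, per contrast and class, the largest changes past the threshold whose arrays do not overlap (up to 5 each way against Untreated, 3 each way between ligands), otherwise the smallest p-values, plus processing RNAs, clusters and lists. Levels of different probe sets were not ranked, although planned. Alternatives covered normalization, dim genes, probe set choice, moderation, array weights, the groups fitted and each array left out. No batch is labelled, and the number of arrays limits the precision.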

Additional observations from a re-analysis of the deposited data

How the results depend on the processing

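With equal weight per array replaced by limma's array weights, the calls became 20 for Heregulin against Untreated, 22 for Heregulin against AP1510, 44 for Heregulin against TGF-alpha, 61 over the 4 groups and 2 for AP1510 against Untreated. The weights of the Heregulin arrays were 0.584, 0.322 and 4.62. For AP1510 against Untreated, 3 were called with dim genes left out and 3 with an intensity trend and robust prior, against 0. For Heregulin against Untreated, 3 were called with repeated quantile normalization, with dim genes left out or with only the groups compared in the fit, against 5. For Heregulin against AP1510, 4 were called with only the groups compared, against 7. With dim genes left out, the box C/D median became -0.07 for AP1510, -0.16 for TGF-alpha and -0.12 for Heregulin, each against Untreated. It became -0.10 for TGF-alpha against AP1510 and 0.14 for Heregulin against TGF-alpha. These medians are over the 35 box C/D RNAs that the filter kept, out of 115. Leaving out each array in turn gave 0 to 2 calls for AP1510, 22 to 40 for TGF-alpha and 1 to 9 for Heregulin against Untreated. It gave 10 to 23 for TGF-alpha against AP1510, 2 to 12 for Heregulin against AP1510, 5 to 20 for Heregulin against TGF-alpha and 21 to 41 over the 4 groups. The box C/D median of Heregulin against TGF-alpha ran from -0.01 to 0.07, and the box H/ACA median of TGF-alpha against AP1510 from -0.09 to 0.03. Of 40 named calls, 15 held in all 12 of these refits. Of the 52 named results, these 40 had a call to lose. In the other alternatives at most 6 lost it under any 1 setting and none changed direction. Only 29 of the 52 were left to test once dim genes were left out. No paired analysis was possible because the labels give the groups no shared replicate numbers. The causes of these shifts were not tested. Shares of all genes called under these alternatives and refits are not given here, so the counts do not show a shift particular to snoRNAs.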

Other observations

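A further 76 probe sets name a snoRNA together with other genes and were left out of the counts above. They hold 63 distinct sets of values, since copies share probes. Added to the fit as features of their own, 5 were higher and 10 lower with TGF-alpha against Untreated, where 25.7% of all 20171 features were called. These are counts of probe sets, so values shared by copies, as for SNORA59A and SNORA59B among the falls, count more than once. With Heregulin against Untreated 4 were higher and 0 lower, where 8.08% of all features were called. Several of the rises lie in TAF1D, the gene of a subunit of the RNA polymerase I initiation factor. The probe set of SNORD5 and TAF1D changed by 0.84 ± 0.15 (SE) with TGF-alpha (adjusted p = 4e-04 by limma) and by 0.75 ± 0.15 with Heregulin (adjusted p = 0.0039), each against Untreated. That of SNORA40 and TAF1D changed by 0.90 ± 0.20 (adjusted p = 0.0028) and 0.70 ± 0.20 (adjusted p = 0.041) in the same contrasts. That of SNORA8 and TAF1D changed by 0.20 with TGF-alpha without passing and by 0.60 ± 0.10 with Heregulin (adjusted p = 0.0012). A second probe set that names SNORA40 and TAF1D changed by 0.31 and 0.20 and passed in neither contrast. That of SNORD6 and TAF1D changed by -0.13 with TGF-alpha and 0.45 with Heregulin, and passed in neither. That of SNORA1 and TAF1D changed by 0.72 and 0.85 and passed in neither.

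The falls with TGF-alpha against Untreated included SNORA48 with its host EIF4A1 (-0.63 ± 0.10, adjusted p = 1.9e-04 by limma), the copies SNORA59A and SNORA59B (-0.66 ± 0.10, adjusted p = 8.5e-05), SNORA44 with SNHG12 (-0.50) and SNORA16A with SNHG12 (-0.52). The probe set of the box C/D RNA SNORD68 was lower too (-0.42), and that of the box H/ACA RNA SNORA33 was higher (0.42). The U3 RNA, needed for cleavage of the ribosomal precursor, was read by 5 probe sets of its SNORD3 copies with identical values, which changed by -0.03 with TGF-alpha, -0.12 with Heregulin and -0.15 with AP1510, and passed in none. SNORD22 with SNHG1 changed by 0.16 and SNORA73A with SNHG3 by -0.03 with TGF-alpha, and neither passed. These probe sets cannot tell a snoRNA from the host or copy named beside it, and they were singled out after their values were seen.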
